A study of Caenorhabditis elegans with 48 samples.

Results

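Starved first-stage (L1) larvae of Caenorhabditis elegans live on stored fat, glycogen and trehalose, and the enzymes that turn these stores into sugar are the subject here. The set holds 10 genes, taken by name from the WBcel235 annotation: icl-1 for the glyoxylate cycle, pyc-1, pck-1, pck-2 and fbp-1 for gluconeogenesis, tps-1 and tps-2 for trehalose synthesis, and tre-1, tre-2 and tre-3 for trehalose breakdown. All 10 passed the filter on low counts and are among the 15549 protein-coding genes tested, from 46911 gene rows in all. The rule is the enzymes' roles and uses no measured value, although results of these data were known when the set was drawn up.

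mRNA-seq was done on whole arrested L1 larvae of 4 strains, hatched without food, sampled at 132 h of arrest, with 100 uM auxin or its solvent ethanol present for the last 96 h, or at 36 h, before either was added. Each of the 12 groups had 4 biological replicates, which gave 48 libraries. The somatic degron strain, Peft-3::TIR1; ama-1::AID, carries the transgene ieSi57 (the eft-3 promoter driving TIR1 in the soma) and ama-1(syb1513), in which an auxin-inducible degron is fused to AMA-1, the biggest RNA polymerase II subunit. The germline degron strain, Pgld-1::TIR1; ama-1::AID, carries the same ama-1 allele with ieSi64, in which the gld-1 promoter drives TIR1 in the germline. Peft-3::TIR1 and Pgld-1::TIR1 carry ieSi57 or ieSi64 alone, with untagged AMA-1. All 4 strains thus share a TIR1 transgene marked with Cbr-unc-119(+). TIR1 with auxin sends a tagged protein to the proteasome, so auxin in the somatic degron strain takes away RNA polymerase II in somatic cells. The study notes slower growth of the fed somatic degron strain even without auxin, and some loss of a degron-tagged protein without auxin is known for this system, so its ethanol and 36 h larvae may not have full AMA-1. A library holds many whole larvae, so tissues cannot be separated.

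Isocitrate lyase and malate synthase, joined in 1 worm protein (ICL-1), let acetyl-CoA from fat build 4-carbon acids that the citric acid cycle alone cannot supply in net amount. Pyruvate carboxylase (PYC-1) and phosphoenolpyruvate carboxykinase (PEPCK; PCK-1 and PCK-2) carry carbon to phosphoenolpyruvate, and fructose-1,6-bisphosphatase (FBP-1) takes the later one-way step to hexose phosphate. Trehalose-6-phosphate synthases (TPS-1 and TPS-2) join glucose units into trehalose, a storage and protectant sugar of worms, and trehalases (TRE proteins) split it back to glucose.

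In WBcel235, icl-1 (WBGene00001564) lies on chromosome V at 724332-728004 (minus strand), pyc-1 (WBGene00004258) on V at 11817783-11822529 (minus) and tre-3 (WBGene00006609) on V at 11709769-11715903 (minus). pck-1 (WBGene00021043) lies on III at 62888-66260 (minus), pck-2 (WBGene00011232) on I at 7866136-7872100 (plus) and fbp-1 (WBGene00001404) on I at 2581015-2586124 (minus). tps-1 (WBGene00006602) lies on X at 17467121-17474534 (minus), tps-2 (WBGene00006603) on II at 14600902-14610554 (plus), tre-1 (WBGene00006607) on I at 6554729-6558665 (plus) and tre-2 (WBGene00006608) on IV at 6876731-6883442 (minus). pck-2 shares 9 exon bases with suro-1 and tps-2 shares 24 with arl-3, and the other 8 genes share none.

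Libraries held 5755041 to 18052333 gene counts, with a median of 11040338, and the lowest count of any member in any library was 37 (tre-3). Levels are given as CPM, gene counts scaled to library sizes with upper-quartile factors, and between genes as RPKM, which also divides by kilobases of exon. ERCC spike-ins, added by total RNA, took 2.58% to 8.33% of counts in somatic degron larvae on auxin, against 1.50% to 2.44% in those on ethanol, and 6.41% in ethanol replicate 4 of Pgld-1::TIR1. Auxin replicate 4 of the somatic degron strain had the 8.33% and also the highest summed CPM of 10 oocyte and eggshell markers, 9 of them detected in all 4 libraries. The sum was 155 to 1598 in this auxin group (mean 629), with 1598 in replicate 4, against 75.4 to 155 in ethanol (mean 111). Every auxin library was thus above the ethanol mean, and the shift was not confined to replicate 4. Counts on the tagged gene check nothing here, since the degron acts on the protein: ama-1 mRNA was 1072 ± 208 CPM on auxin and 461 ± 132 CPM in ethanol in the somatic degron strain (SD, n = 4 each). Marker lists of intestine, hypodermis, muscle, neurons and germ cells were all detected, as whole larvae should give.

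Per kilobase of transcript, the PEPCK gene pck-2 was the most abundant member over all 48 libraries, with a mean of 303 RPKM, followed by icl-1 at 248, pck-1 at 130 and pyc-1 at 56.6 RPKM. The trehalose genes were lower, with tps-2 at 45.4, tre-2 at 41.4, tps-1 at 35.9, tre-1 at 16.1 and tre-3 at 13.2 RPKM, and fbp-1 was the lowest at 12.8 RPKM. The mean over libraries hides how unevenly they varied. The highest group mean of icl-1 was 61.1 times its lowest, that of tre-2 14.6 times and that of tre-3 9.76 times. For the other 7 members this ratio was between 1.85 (tps-2) and 3.25 (pck-1).

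The order of the genes by group mean RPKM changed with time and with auxin. In somatic degron larvae on auxin it ran pck-2 (216 ± 55.4), pck-1 (81.5 ± 23.8), tps-2 (50.2 ± 8.65), tps-1 (36.3 ± 9.45), pyc-1 (23.9 ± 4.02), tre-1 (19.7 ± 4.43), icl-1 (17.2 ± 12.3), tre-3 (11.2 ± 3.84), fbp-1 (8.40 ± 3.49) and tre-2 (6.89 ± 1.18, SD, n = 4 each), and apart from pck-2 and pck-1, each gene's range overlapped that of the next. In the other 7 groups at 132 h, icl-1 came first (group means of 372 to 442 RPKM), pck-2 second (200.1 to 314 RPKM) and tre-3 last (3.52 to 6.38 RPKM), with the ranges of icl-1 and pck-2 overlapping in the somatic degron strain on ethanol and in Pgld-1::TIR1 on auxin. In the 4 groups at 36 h, pck-2 came first (376 to 442 RPKM), pck-1 second (94.1 to 172 RPKM) and tps-2 after it (46.8 to 57.1 RPKM), pck-1 lay apart from both neighbours in each group, and icl-1 was at 7.23 to 11.6 RPKM.

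**Figure D1:**
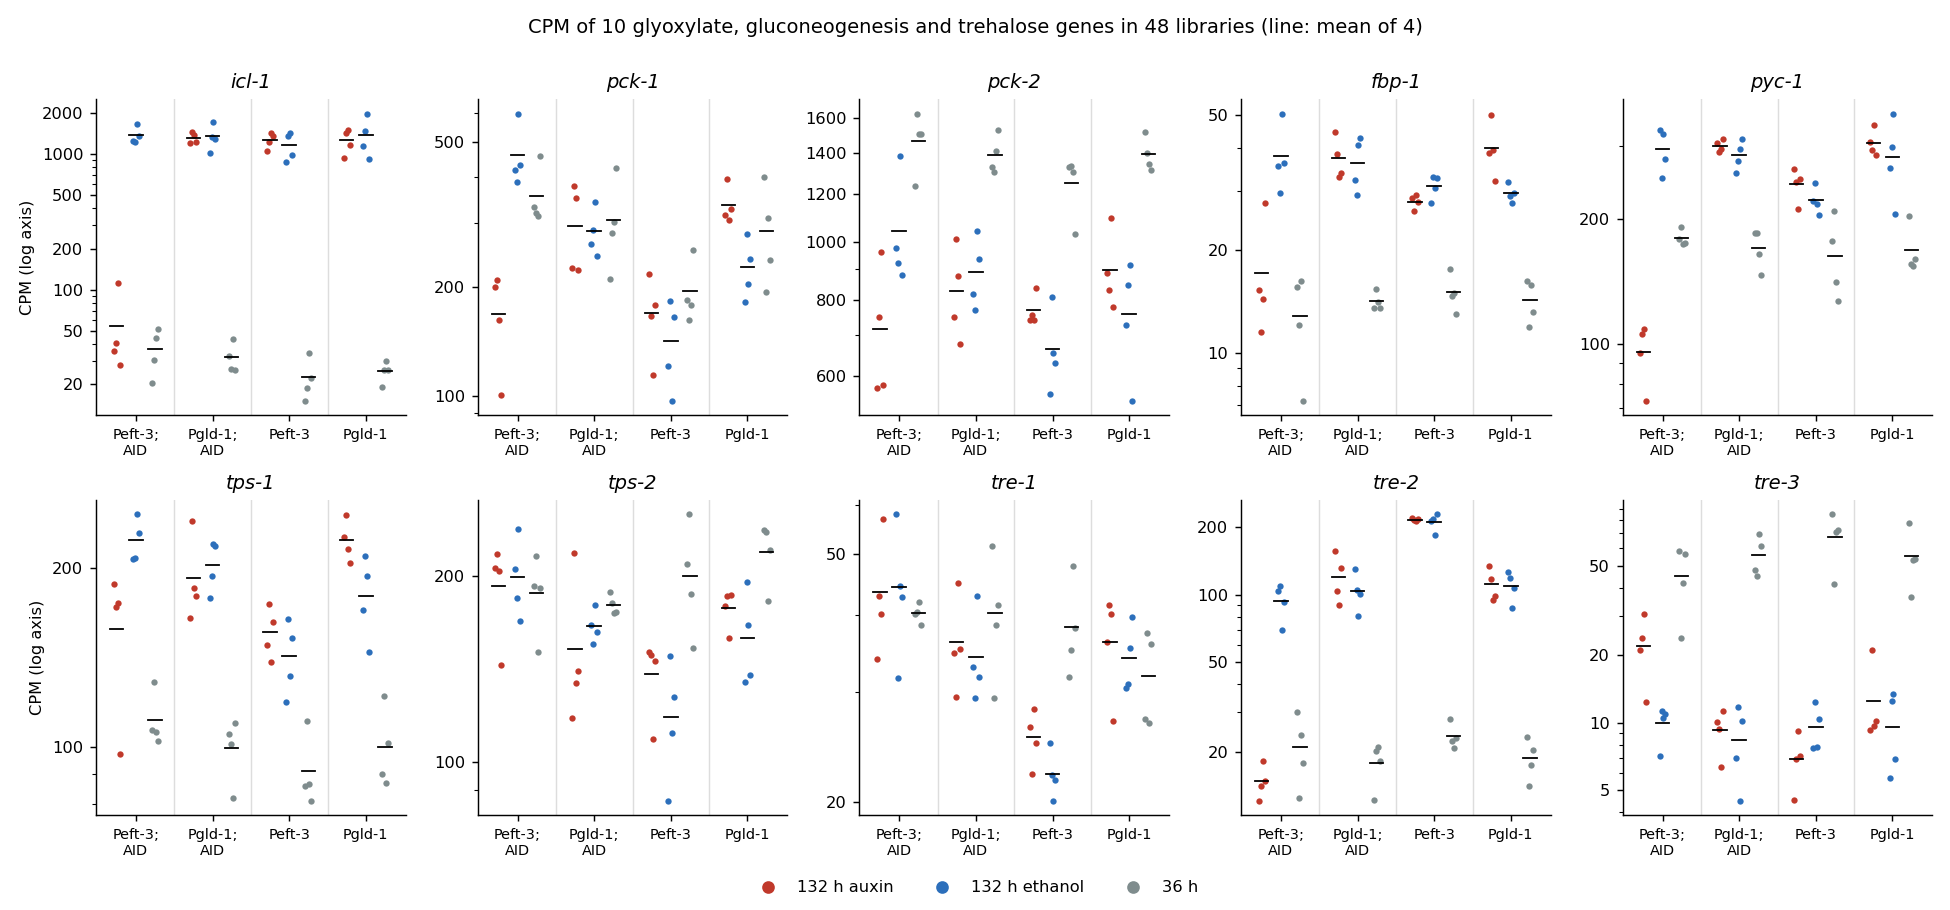
CPM of each of the 10 genes in all 48 libraries, on log axes, with 1 point per library and a line at the mean of 4; within each strain the 132 h auxin, 132 h ethanol and 36 h libraries run from left to right. For icl-1, the auxin libraries of the somatic degron strain (27.9 to 111 CPM) lie near the 36 h libraries (15.2 to 51.0 CPM) and far below the other 28 libraries at 132 h (880 to 1996 CPM).

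Larvae at 132 h in ethanol were set against larvae at 36 h, sampled before ethanol was added. Longer starvation and 96 h of ethanol thus cannot be told apart in these comparisons. The glyoxylate cycle gene icl-1, the gluconeogenic genes pyc-1 and fbp-1 and the trehalose genes tps-1 and tre-2 were higher at 132 h in all 4 strains. pck-2 and tre-3 were lower at 132 h in all 4. By edgeR's quasi-likelihood test with Benjamini-Hochberg adjustment over all genes tested, 5 members were higher and 2 lower in the somatic degron strain and likewise in the germline degron strain, 5 higher and 4 lower in Peft-3::TIR1, and for Pgld-1::TIR1 5 higher and 3 lower. Of all genes tested, 15.2%, 17%, 20.5% and 18.8% were higher and 15.1%, 17.1%, 23.9% and 19.4% lower, with the strains in the same order. CPM ranges of the 2 times did not overlap for 5, 5, 4 and 5 higher members (15.6%, 18.3%, 21.1% and 18.1% of all genes) and for 1, 2, 4 and 2 lower members (15.7%, 18.6%, 23.3% and 18.2%). The median log2 fold change of the members was 0.55, 0.33, 0.00 and 0.43, against -0.01, -0.00, -0.11 and -0.01 for all genes tested. Summed tissue markers moved over time as well. In the somatic degron strain, body wall muscle markers averaged 4806 CPM at 132 h in ethanol and 22605 CPM at 36 h. Intestine markers averaged 1109 and 2753 CPM, and germ cell markers 202 and 110 CPM. Neuron markers averaged 2623 and 3117 CPM and hypodermis markers 144 and 145 CPM, both with overlapping ranges. The means of these sums moved the same way in all 4 strains, and their part in the changes of the members was not tested.

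icl-1 had the widest span. In the somatic degron strain it was at 1256, 1234, 1666 and 1357 CPM at 132 h in ethanol, against 20.7, 30.2, 43.9 and 51.0 CPM at 36 h. In Pgld-1::TIR1 it was at 1143, 1474, 1996 and 918 CPM at 132 h in ethanol, against 19.2, 25.7, 29.9 and 25.7 CPM at 36 h. No library at one time came near those of the other time, and at 132 h icl-1 led the 10 genes by RPKM in ethanol in all 4 strains, whereas at 36 h it was among the lowest 3. The fitted rise was 35.1-fold in the somatic degron strain (log2 5.13, SE 0.35), 39.7-fold in the germline degron strain (5.31, SE 0.34), 48.3-fold in Peft-3::TIR1 (5.59, SE 0.35) and 52.8-fold in Pgld-1::TIR1 (5.72, SE 0.34), with the highest of the 4 adjusted p at 2.35e-16 by edgeR's quasi-likelihood test.

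The gluconeogenic enzymes went different ways. fbp-1 was at 35.5, 29.5, 50.6 and 36.2 CPM in somatic degron larvae at 132 h in ethanol, against 15.6, 12.1, 16.3 and 7.22 CPM at 36 h, without overlap. Its log2 fold change was 1.57 (SE 0.23) there, 1.36 in the germline degron strain, 1.04 in Peft-3::TIR1 and likewise 1.04 for Pgld-1::TIR1. pyc-1, the pyruvate carboxylase, rose less, by 0.63, 0.67, 0.36 and 0.70 on the log2 scale in the same order of strains, and its ranges overlapped in Peft-3::TIR1 (205 to 245 CPM at 132 h, 127 to 209 CPM at 36 h, adjusted p = 0.0425 by edgeR's quasi-likelihood test). The pyc-1 call was lost without replicate 1 in the somatic degron strain (0.46). In Peft-3::TIR1 it was lost in 4 of 14 alternative settings, among them those without replicate 1 (0.32) or 3 (0.28). pck-2 was at 977, 922, 1382 and 879 CPM in somatic degron larvae at 132 h in ethanol, against 1235, 1627, 1504 and 1507 CPM at 36 h, and replicate 3 at 132 h lay inside the 36 h range. Its log2 fold changes were -0.51, -0.66, -0.92 and -0.89, and the call was lost without replicate 2 (-0.44) or 4 (-0.26) in the somatic degron strain, without replicate 4 (-0.46) in the germline degron strain, and in the fits to the compared libraries alone with W1 in both degron strains (-0.11 and -0.33). The other PEPCK gene, pck-1, passed the test in no strain, with log2 fold changes of 0.48 (95% interval -0.02 to 0.99), -0.00 (-0.50 to 0.49), -0.36 (-0.86 to 0.14) and -0.30 (-0.76 to 0.17).

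The trehalose genes split within each step of the pathway. Of the synthases, tps-1 was at 207, 208, 247 and 229 CPM in somatic degron larvae at 132 h in ethanol, against 107, 129, 106 and 102 CPM at 36 h, with no overlap and log2 fold changes of 1.00, 1.02, 0.63 and 0.84 over the 4 strains. tps-2 did not pass in either degron strain (0.11, 95% interval -0.26 to 0.49, and -0.09, -0.46 to 0.27) and was lower in Peft-3::TIR1 (-0.74, SE 0.18) and Pgld-1::TIR1 (-0.45, SE 0.17), the last with overlapping ranges. The tps-2 call in Pgld-1::TIR1 was lost in 3 of 16 alternative settings and changed sign in 2 more. Among the 3 was the fit without its ethanol replicate 4, the library with the high spike-in share (-0.30). Of the trehalases, tre-2 rose and tre-3 fell everywhere. tre-2 was at 105, 109, 69.5 and 93.3 CPM in somatic degron larvae at 132 h in ethanol, against 30.1, 12.4, 23.8 and 17.8 CPM at 36 h, whereas tre-3 was at 7.10, 11.3, 10.5 and 10.9 CPM at 132 h, against 58.5, 24.01, 42.04 and 56.5 CPM at 36 h. Neither gene's ranges overlapped in any strain, and the log2 fold changes were 1.93, 2.33, 2.96 and 2.48 for tre-2 and -2.58, -3.10, -3.14 and -2.69 for tre-3. tre-1 passed only in Peft-3::TIR1 (-0.64, SE 0.19), where it was at 24.9, 22.1, 20.1 and 21.7 CPM at 132 h in ethanol, against 31.7, 35.1, 47.8 and 38.03 CPM at 36 h. That call was lost in 2 of 14 alternative settings, among them the one without replicate 3 (-0.49).

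For some members 1 strain lay apart from the other 3 in ethanol at 132 h. These differences were not tested, and the share of all genes with such a gap was not counted. tre-2 was at 214, 218, 186 and 230 CPM in Peft-3::TIR1, while the ethanol libraries of the other 3 strains lay between 69.5 and 130 CPM. tre-1 was at 20.1 to 24.9 CPM in Peft-3::TIR1 and at 29.4 CPM or more in the others. pck-1 was at 388 to 598 CPM in the somatic degron strain and at 343 CPM or less in the others. The 4 strains at 36 h were close together for tre-2, with group means of 17.9 to 23.5 CPM.

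**Figure D2:**
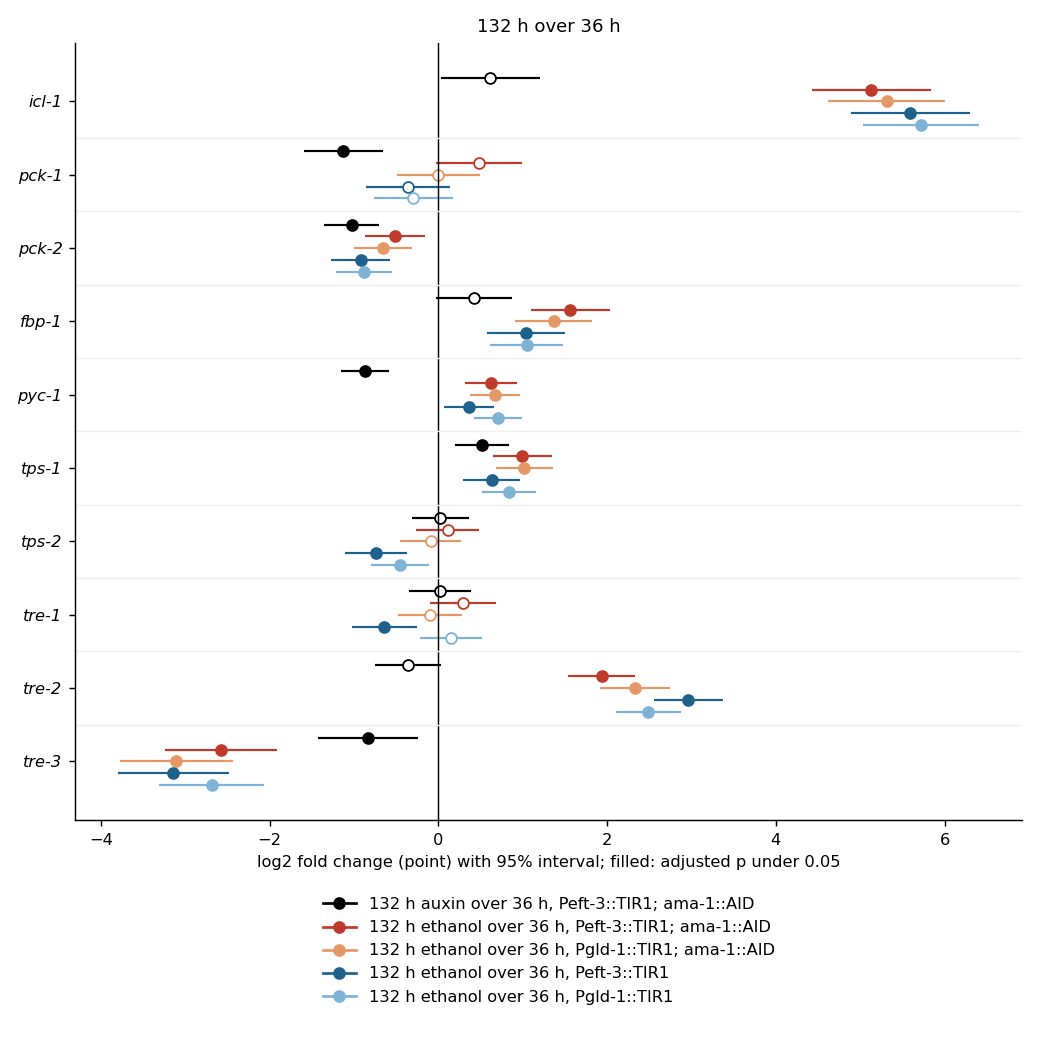
Log2 fold change of each gene with its 95% interval, for 132 h auxin over 36 h in the somatic degron strain (black) and 132 h ethanol over 36 h in the 4 strains (colours); filled points passed an adjusted p of 0.05. icl-1 lies at 0.61 with auxin, against 5.13 to 5.72 in ethanol, and tre-3 at -0.84 with auxin, against -3.14 to -2.58 in ethanol.

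Auxin against ethanol at 132 h in the somatic degron strain asks which of these levels depended on RNA polymerase II in the soma after 36 h. Most members were lower with auxin: icl-1, tre-2, pck-1, pyc-1 and fbp-1 by the most, and pck-2 and tps-1 by little. One trehalase gene, tre-3, was higher, and tps-2 and tre-1 did not pass. With auxin, pck-1 (101 to 209 CPM) lay within the range of the other 7 groups at 132 h (97.3 to 598 CPM). So did pck-2 (572 to 962 CPM, against 546 to 1382 CPM). On auxin, the somatic degron strain and Peft-3::TIR1 averaged 168 and 169 CPM for pck-1, and 158 and 156 CPM for tps-1. In ethanol, pck-1 averaged 459 and 141 CPM in the same order. By edgeR's quasi-likelihood test with Benjamini-Hochberg adjustment, 7 of the 10 members were lower and 1 higher, against 16.1% and 13.3% of all genes tested, and CPM ranges did not overlap for 6 lower and 1 higher members, against 16.9% and 16.2% of all genes. The median log2 fold change was -0.83 for the members and 0.11 for all genes tested. With libraries scaled to their spike-in counts instead, 9 members were lower and 0 higher, against 52.4% and 2.68% of all genes.

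icl-1 was at 35.4, 40.4, 111 and 27.9 CPM with auxin, against 1256, 1234, 1666 and 1357 CPM in ethanol. Auxin replicate 3, the highest of its group, was still far below every ethanol library. The fitted log2 fold change was -4.52 (SE 0.36, adjusted p = 8.23e-14 by edgeR's quasi-likelihood test), which is 0.0436 of the ethanol level. This kept its direction and its call under all 16 alternative settings, between -5.96 and -4.06.

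Among the gluconeogenic enzymes, pyc-1 was at 95.2, 106, 109 and 73.1 CPM with auxin, against 329, 252, 322 and 280 CPM in ethanol (log2 -1.50, SE 0.17, adjusted p = 1.32e-09 by edgeR's quasi-likelihood test). pck-1 was at 200, 209, 162 and 101 CPM with auxin, against 420, 388, 598 and 431 CPM in ethanol (-1.61, SE 0.28). fbp-1 was at 15.3, 11.5, 14.4 and 27.6 CPM with auxin, against 35.5, 29.5, 50.6 and 36.2 CPM in ethanol (-1.14, SE 0.26). The 3 genes had separate ranges, and for fbp-1 the gap was narrow, between auxin replicate 4 and ethanol replicate 2. In the fit to these 8 libraries alone with W1, pck-1 (-0.99, adjusted p = 0.343 by edgeR's quasi-likelihood test) and pyc-1 (-1.47, adjusted p = 0.0681) lost their calls, each in 1 of 16 alternative settings. fbp-1 missed the threshold without replicate 3 (adjusted p = 0.0532 by edgeR's quasi-likelihood test). pck-2 stood out by the size of its change: it was at 572, 751, 962 and 580 CPM with auxin, against 977, 922, 1382 and 879 CPM in ethanol, with auxin replicate 3 inside the ethanol range. Its log2 fold change was -0.52 (SE 0.20, adjusted p = 0.0402 by edgeR's quasi-likelihood test), and the call was lost in 8 of 16 alternative settings, among them the one without auxin replicate 4 (-0.46, adjusted p = 0.0681).

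In trehalose synthesis, tps-1 was at 188, 172, 175 and 97.4 CPM with auxin, against 207, 208, 247 and 229 CPM in ethanol. The ranges were apart, 3 of the 4 auxin libraries were close to the ethanol libraries and replicate 4 was far below. The log2 fold change of -0.48 (SE 0.19, adjusted p = 0.0490 by edgeR's quasi-likelihood test) lost its call without auxin replicate 4 (-0.38, adjusted p = 0.0865) and in 6 of 16 settings in all, and in a further setting it changed sign. tps-2 was at 206, 217, 204 and 144 CPM with auxin and 205, 184, 238 and 169 CPM in ethanol, an overlap with a log2 fold change of -0.09 (95% interval -0.50 to 0.32).

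The trehalases went in different directions. tre-2 was at 12.1, 14.1, 18.2 and 14.8 CPM with auxin, against 105, 109, 69.5 and 93.3 CPM in ethanol, a log2 fold change of -2.29 (SE 0.23) that was called in all 16 alternative settings. tre-3 was at 21.2, 23.8, 30.6 and 12.4 CPM with auxin, against 7.10, 11.3, 10.5 and 10.9 CPM in ethanol. Every auxin library was above every ethanol library for tre-3, by little in replicate 4, and the log2 fold change was 1.74 (SE 0.36, adjusted p = 0.000195 by edgeR's quasi-likelihood test). On the spike-in scale tre-3 was at -0.15 (SE 0.46), so its rise is relative to the other mRNAs. The tre-3 call was also lost in the fit to these 8 libraries alone with W1 (2.31, adjusted p = 0.0961 by edgeR's quasi-likelihood test) and on the spike-in scale without auxin replicate 4 (0.14). tre-1 was at 33.9, 42.9, 40.1 and 57.0 CPM with auxin and 58.0, 31.6, 44.5 and 42.7 CPM in ethanol, with a log2 fold change of -0.27 (95% interval -0.71 to 0.16).

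Fewer cells of a type and less RNA per cell cannot be told apart in whole larvae. Marker sums also differed between these 2 groups: 6 matched intestine markers of 7 summed to 304 to 496 CPM with auxin, against 929 to 1264 CPM in ethanol, and 6 germ cell markers to 273 to 501 CPM with auxin, against 161 to 234 CPM in ethanol, with all of them detected in all 8 libraries. Body wall muscle markers summed to 2388 to 3489 CPM with auxin, against 4123 to 6161 CPM in ethanol. The ranges of the neuron and hypodermis sums overlapped. The part of these shifts in the changes of the members was not tested. Without auxin replicate 4, the library with the highest spike-in share and the highest oocyte marker sum, 5 members were lower and 1 higher, against 15.8% and 14% of all genes. Without W1, the spike-in covariate of the fit, each of the 10 members stayed on its side of the threshold.

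**Figure D3:**
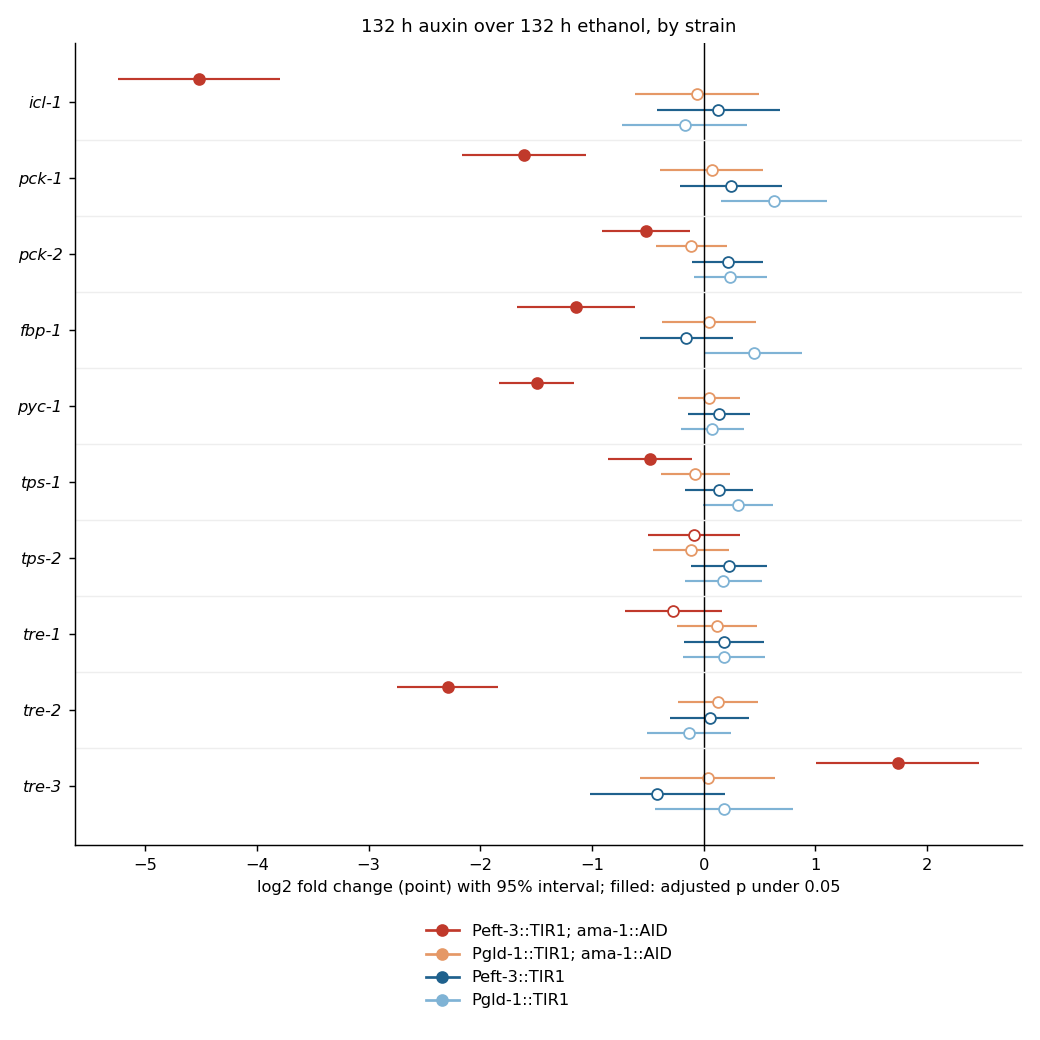
Log2 fold change of 132 h auxin over 132 h ethanol with its 95% interval for each gene, in the somatic degron strain (red), the germline degron strain (orange), Peft-3::TIR1 (dark blue) and Pgld-1::TIR1 (light blue); filled points passed an adjusted p of 0.05. All filled points belong to the somatic degron strain, from icl-1 at -4.52 to tre-3 at 1.74.

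The same comparison in the other 3 strains serves as the control for auxin itself. In the germline degron strain it also concerns polymerase loss in the germline. The study counts few germ cells in an L1 larva and describes them as transcriptionally quiescent in arrest. Whole-larva libraries may show little of that loss, so a lack of calls there cannot decide on germline transcription of these genes. No member passed in any of the 3, and neither did any of the 15549 genes by edgeR's quasi-likelihood test. At an unadjusted p under 0.05 there were 230 genes in the germline degron strain, 720 in Peft-3::TIR1 and 502 in the Pgld-1::TIR1 strain. DESeq2 called 5, 16 and 9 genes and edgeR's likelihood ratio test 0, 7 and 3, and none of these calls was a member. For icl-1 the log2 fold changes were -0.06 (95% interval -0.62 to 0.50), 0.13 (-0.42 to 0.68) and -0.17 (-0.73 to 0.39), which leave out a change of the size seen in the somatic degron strain. icl-1 was at 1214, 1464, 1390 and 1240 CPM with auxin in the germline degron strain, against 1026, 1349, 1741 and 1306 CPM in ethanol. In Pgld-1::TIR1, pck-1 and fbp-1 were higher with auxin without overlap, as 1.36% of all genes were. pck-1 was at 314, 395, 304 and 326 CPM with auxin, against 182, 280, 204 and 238 CPM in ethanol (0.63, 95% interval 0.16 to 1.11), and fbp-1 at 38.6, 50.0, 39.6 and 31.97 CPM, against 31.8, 28.9, 27.6 and 29.4 CPM (0.45, 0.01 to 0.88). Neither passed after adjustment.

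The difference in the effect of auxin between the somatic degron strain and Peft-3::TIR1, which share the TIR1 transgene, was tested as an interaction. It was negative for icl-1 (log2 difference -4.65, SE 0.44), tre-2 (-2.35, SE 0.28), pck-1 (-1.86, SE 0.36), pyc-1 (-1.63, SE 0.21), fbp-1 (-0.99, SE 0.33) and pck-2 (-0.73, SE 0.25), and positive for tre-3 (2.16, SE 0.46). These 7 calls, 6 lower and 1 higher, stand against 12.5% and 8.31% of all genes tested. tps-1 did not pass (-0.62, adjusted p = 0.0585 by edgeR's quasi-likelihood test) except in 7 of 16 settings, the block on replicate numbers among them (-0.63, adjusted p = 0.0327), and tps-2 and tre-1 were at -0.32 and -0.45. fbp-1 lost its call without replicate 1, 2 or 3 and with DESeq2, pck-2 without replicate 1, 2 or 3, pck-1 and pck-2 in the fit to these 16 libraries alone with W1 (-1.196 and -0.71), and tre-3 on the spike-in scale (0.47). Between the germline degron strain and Pgld-1::TIR1 the interaction passed for 0 members and 0 genes by edgeR's quasi-likelihood test, with 466 genes at an unadjusted p under 0.05 and 6 by DESeq2, and the value for icl-1 was 0.11 (95% interval -0.67 to 0.89).

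Set against the larvae at 36 h, before auxin and its solvent were added, the auxin libraries of the somatic degron strain show where each mRNA stood 96 h later. The gluconeogenic genes pck-1, pck-2 and pyc-1 and the trehalase gene tre-3 were below their level at 36 h, tps-1 was above it, and icl-1, fbp-1, tps-2, tre-1 and tre-2 did not pass. That is 1 member higher and 4 lower, against 23.8% and 24.2% of all genes tested, by edgeR's quasi-likelihood test, with a median log2 fold change of -0.17 for the members and 0.09 for all genes. This comparison shares its auxin libraries with the comparison with ethanol, and its 36 h libraries with the comparison over time.

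pck-2 was at 572, 751, 962 and 580 CPM at 132 h with auxin, against 1235, 1627, 1504 and 1507 CPM at 36 h (log2 -1.03, SE 0.16). pck-1 was at 200, 209, 162 and 101 CPM with auxin, against 332, 318, 314 and 456 CPM at 36 h (-1.13, SE 0.23), and pyc-1 at 95.2, 106, 109 and 73.1 CPM, against 180, 192, 174 and 175 CPM (-0.87, SE 0.14). None of the 3 had overlapping ranges, as for 20.2% of all genes on the lower side. tre-3, at 21.2, 23.8, 30.6 and 12.4 CPM with auxin, against 58.5, 24.01, 42.04 and 56.5 CPM at 36 h, did overlap (-0.84, SE 0.29). The tre-3 call was lost in 4 of 16 settings, among them those without auxin replicate 4 (-0.70, adjusted p = 0.0596 by edgeR's quasi-likelihood test) and without replicate 4 of all groups (-0.40). For icl-1 the values were 35.4, 40.4, 111 and 27.9 CPM with auxin and 20.7, 30.2, 43.9 and 51.0 CPM at 36 h (0.61, 95% interval 0.03 to 1.2, adjusted p = 0.0782). Without auxin replicate 4 icl-1 passed (0.80, adjusted p = 0.0232), as it did with replicate numbers as a block (0.56, adjusted p = 0.0226). tps-1 was at 188, 172, 175 and 97.4 CPM with auxin, against 107, 129, 106 and 102 CPM at 36 h, with auxin replicate 4 below the 36 h range (0.52, SE 0.16), and lost its call in 6 of 16 settings, among them those without replicate 1 (0.42) or 3 (0.46), the fits to the 8 libraries alone (0.60 with W1, 0.51 without) and the spike-in scale (0.10). tre-2 stood at 12.1 to 18.2 CPM with auxin and 12.4 to 30.1 CPM at 36 h (-0.36, 95% interval -0.75 to 0.03). On the spike-in scale 5 members were lower than at 36 h and 0 higher, against 26.4% and 9.15% of all genes.

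Before any auxin, at 36 h, the somatic degron strain and Peft-3::TIR1 differ by the tagged ama-1 allele and by culture. The study started the slower-growing degron strain from gravid adults and Peft-3::TIR1 from larvae. Effects of allele and culture cannot be told apart. No member passed, as few genes did (35 by edgeR's quasi-likelihood test, 0.225% of those tested in either direction, and 1222 at an unadjusted p under 0.05). The nearest was pck-1, at 332, 318, 314 and 456 CPM in the somatic degron strain, against 184, 162, 178 and 252 CPM in Peft-3::TIR1, ranges that do not overlap (as for 2.28% of all genes, in this direction). Its log2 fold change was 0.86 (SE 0.23, adjusted p = 0.118 by edgeR's quasi-likelihood test), and it passed under DESeq2, under the likelihood ratio test and in the fits to these 8 libraries alone.

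Enzymes that share a step or meet at one were also compared by their ratio within a library, which no scaling between libraries can move. Per kilobase, log2 of tps-1 over tps-2 averaged -0.01 ± 0.19, 0.10 ± 0.14, 0.10 ± 0.13 and -0.00 ± 0.12 at 132 h in ethanol, against -0.94 ± 0.18, -1.04 ± 0.17, -1.31 ± 0.16 and -1.32 ± 0.19 at 36 h (SD, n = 4 each), in the somatic degron strain, the germline degron strain, Peft-3::TIR1 and Pgld-1::TIR1. So the 2 synthase mRNAs went to about equal amounts at 132 h, and the libraries of the 2 times did not overlap in any strain. With auxin in the somatic degron strain the ratio was -0.49 ± 0.19, below all ethanol libraries of that strain and overlapping the 36 h libraries. Log2 of icl-1 over pyc-1 was -0.69 ± 0.72 with auxin, against 2.57 ± 0.20 in ethanol, and -2.03 ± 0.62 at 36 h. Log2 of pck-2 over pck-1 was 1.43 ± 0.52 with auxin, against 0.49 ± 0.10 in ethanol, and 1.37 ± 0.30 at 36 h. In an exact permutation test, two-sided and with 4 libraries a side, each of these differences between auxin and ethanol and between ethanol and 36 h in this strain had p = 0.0286, the smallest the design allows, and an adjusted p of 0.0571 over 24 tests, so none passed 0.05. With that floor a pass needs many of the 24 comparisons to reach it, so the miss decides little.

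**Figure D4:**
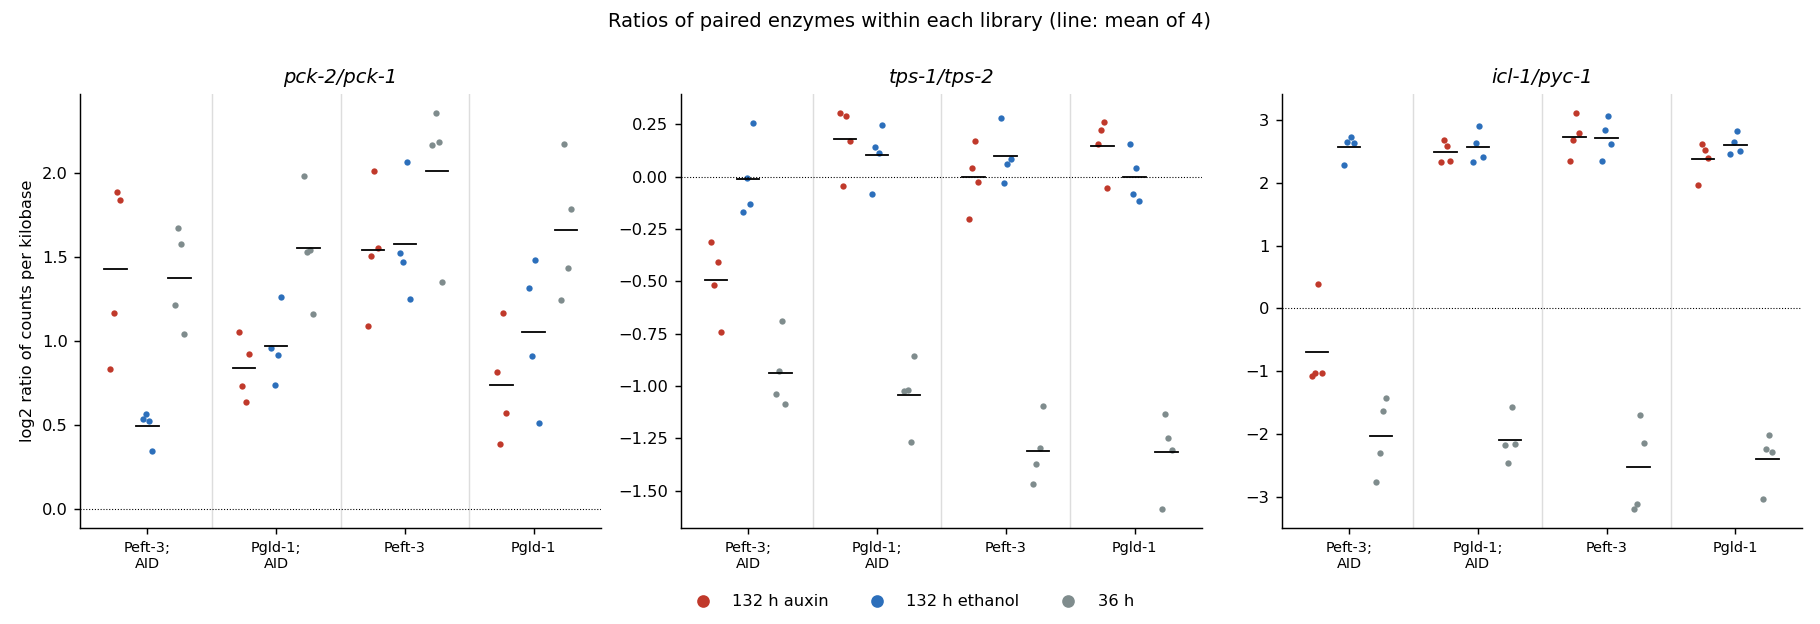
Log2 ratio of counts per kilobase of pck-2 over pck-1, tps-1 over tps-2 and icl-1 over pyc-1, with 1 point per library and a line at the mean of 4; within each strain the 132 h auxin, 132 h ethanol and 36 h libraries run from left to right. The tps-1 over tps-2 ratio lies near 0 in ethanol at 132 h in all 4 strains and at -0.94 to -1.32 at 36 h.

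Upper-quartile scaling sets each mRNA against the other mRNAs of its library, and the spike-in scale sets it against total RNA. Neither scale gives amounts per larva. The study reports that total RNA from equal numbers of larvae was lower at the later time. A rise or a lack of change over time on the spike-in scale thus need not hold per larva, which was not tested. The median of all genes tested moved to -1.25 on the spike-in scale for auxin against ethanol in the somatic degron strain, and to 0.85, 0.78, 0.84 and 0.46 for 132 h in ethanol against 36 h in the 4 strains in the same order. The 0.46 of Pgld-1::TIR1 rests on 1 library and is 0.76 without ethanol replicate 4. On that scale all members but tre-3 were lower with auxin, from icl-1 (-5.96, SE 0.50) and tre-2 (-3.995, SE 0.43) to tre-1 (-1.35, SE 0.35) and tps-2 (-1.31, SE 0.34), and tps-2 and tre-1 were thus near the median of all genes. Over time 8 members were higher and 1 lower in the somatic degron strain (31.8% and 3.38% of all genes), and 5 higher and 1 lower in each of the other 3 (30% and 4.01%, 35.4% and 6.07%, and 19.4% and 5.66% of all genes, the last pair being 29.6% and 4.01% without ethanol replicate 4 of Pgld-1::TIR1). tre-3 was the 1 that fell, and icl-1, fbp-1, pyc-1, tps-1 and tre-2 rose on both scales in all 4 strains. pck-2 passed in no strain on the spike-in scale (0.35, 0.11, 0.00 and -0.30), so its fall over time was seen relative to other mRNAs and not relative to total RNA. tps-2 and tre-1 in Peft-3::TIR1 likewise turned from calls on the lower side to 0.17 and 0.15.

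**Figure D5:**
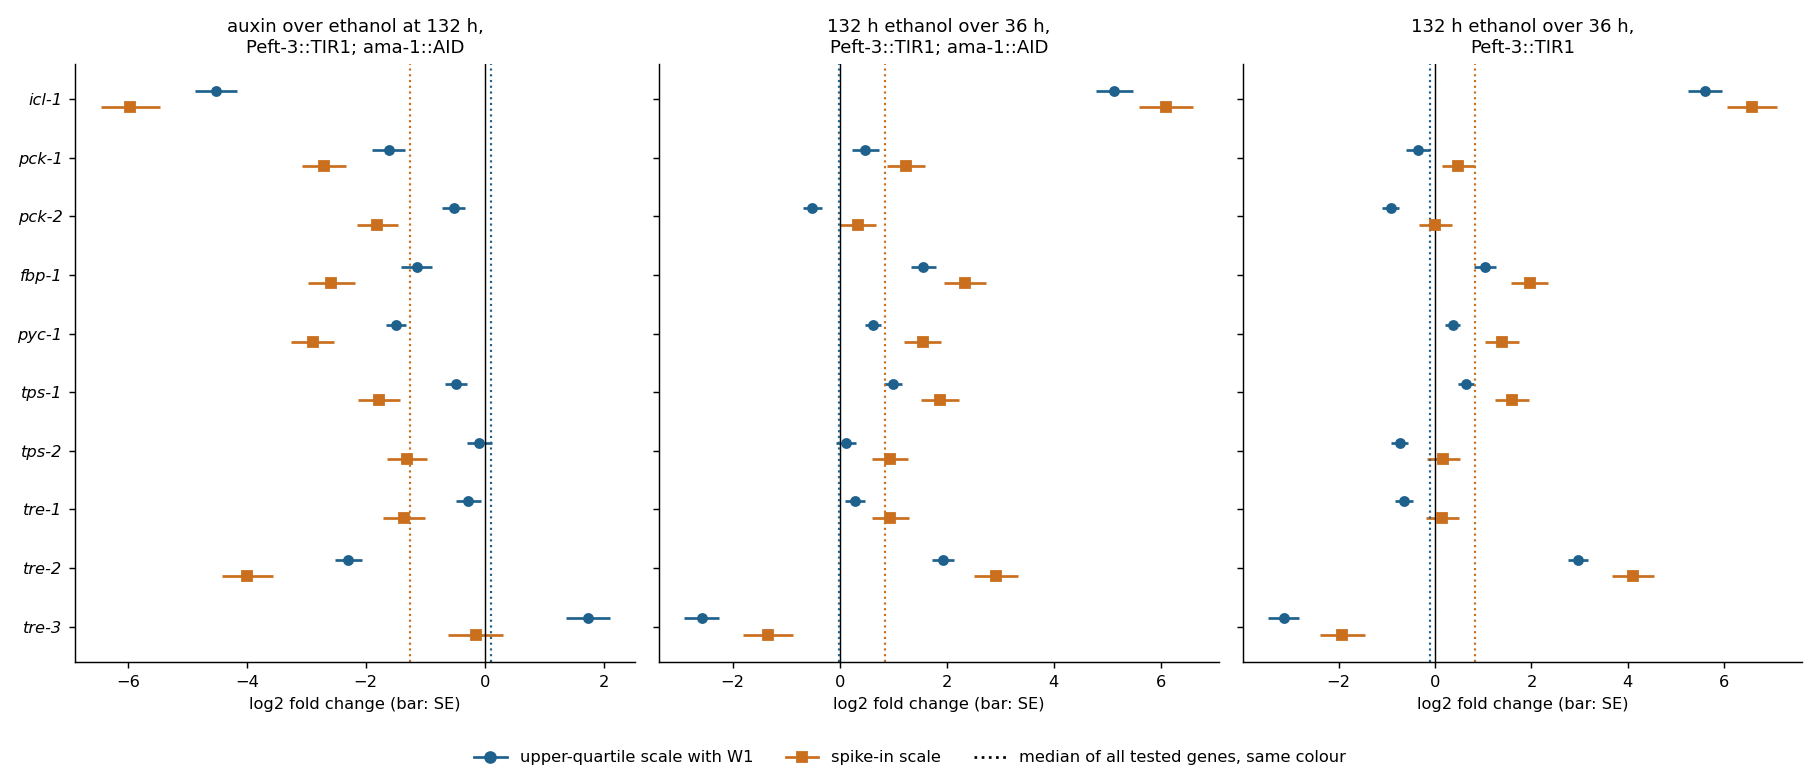
Log2 fold change of each gene, with its SE as a bar, on the upper-quartile scale with W1 (circles) and on the spike-in scale (squares), for auxin over ethanol at 132 h in the somatic degron strain and for 132 h ethanol over 36 h in the somatic degron strain and in Peft-3::TIR1; dotted lines are the medians of all genes tested. With auxin the squares lie left of the circles for all 10 genes, and tre-3 moves to -0.15 from 1.74.

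Other enzymes of the same carbon routes, from lists made with earlier results of these data known, were counted in the same fit for auxin against ethanol in the somatic degron strain, where 16.1% of all genes were lower and 13.3% higher. Of 14 citric acid cycle genes 9 were lower and 0 higher (median log2 fold change -0.64, against 0.11 for all genes). Of 11 genes for the reversible steps that glycolysis and gluconeogenesis share, 6 were lower and 2 higher (median -0.61). Of 7 genes for the one-way steps of glycolysis 0 were lower and 1 higher (median 0.22), and of 5 glycogen genes 1 was lower and 1 higher (median 0.13). In the other 3 strains none of these genes passed.

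The most abundant of those that passed show the sizes. aco-2, a mitochondrial aconitase, averaged 208 ± 42.5 CPM with auxin and 1261 ± 109 CPM in ethanol (SD, n = 4 each, log2 -2.45), cts-1 (citrate synthase) 295 ± 55.4 and 677 ± 56.3 CPM (-1.15), and idha-1 (an isocitrate dehydrogenase subunit) 92.3 ± 6.18 and 169 ± 17.7 CPM (-0.69). In the reversible steps, the aldolase gene aldo-2 averaged 532 ± 91.6 CPM with auxin and 927 ± 245 CPM in ethanol (-0.93), and the glyceraldehyde-3-phosphate dehydrogenase genes gpd-3 and gpd-2 fell by 0.61 and 0.82 on the log2 scale, while their paralogs gpd-1 (1.72, SE 0.68) and gpd-4 (1.67, SE 0.59) were the 2 that rose. The gpd genes are near-identical in pairs, so their counts may have been split between copies. Without auxin replicate 4, 7 genes of this list were lower and 0 higher by the same test (15.8% and 14% of all genes), and the counts of the other lists did not change. Among the rest, the phosphofructokinase gene pfk-1.2 rose (1.32), the glycogen phosphorylase gene pygl-1 fell (-0.81) and the glycogenin gene gyg-2 rose (2.11), with a wide spread of 116 ± 128 CPM with auxin.

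Among further trehalose genes, 2 of 3 tested were higher with auxin, as tre-3 was and as 13.3% of all genes were. gob-1, the trehalose-6-phosphate phosphatase that completes trehalose synthesis, averaged 54.5 ± 21.1 CPM with auxin and 37.7 ± 4.47 CPM in ethanol (log2 0.79, overlapping ranges), and the trehalase gene tre-5 26.8 ± 3.24 CPM with auxin and 7.60 ± 1.84 CPM in ethanol (1.81, ranges apart). tre-4 did not pass (0.66, SE 0.49), and the third PEPCK gene, pck-3, was under the filter on low counts. Over time in ethanol, 2 of these 3 tested genes were lower in each of the 4 strains, where 15.1% to 23.9% of all genes were.

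Across the 12 group means, the genes most like each member by Pearson's r of log2 CPM are given as a description, since the groups share strains and libraries. icl-1 was matched most closely by F21C10.10 and Y62E10A.13 (r = 0.998 for both), tre-2 by myrf-1 (0.994) and hrpr-1 (0.992), tre-3 by ZK185.5 (0.993) and nhr-103 (0.990), pyc-1 by pqn-89 (0.994) and C12D12.1 (0.991), and pck-2 by Y82E9BR.3 (0.992) and F48E8.3 (0.990). fbp-1 was matched by clc-1 (0.990) and C16D9.4 (0.985), and tps-1 by trap-1 (0.990) and sec-61.A (0.980). The matches of tre-1 (suca-1, 0.958, and flp-8, 0.937), tps-2 (let-767, 0.921, and mpc-1, 0.920) and pck-1 (lact-4, 0.894, and ctl-1, 0.891) were looser. With the 12 groups put in order of mean CPM, neighbouring groups had separate ranges at 1 of 11 steps for icl-1, at 2 of 11 for pyc-1 and at 2 of 11 for tre-2, and at 0 of 11 for each of the other 7 members. These counts are a description too, since the groups were sorted by the same values and the steps of all genes were not counted.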

How the data were processed

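Members and gene lists were chosen with earlier results of these data known. Poly(A)-selected libraries were made from total RNA with ERCC spike-ins by a kit that does not mark strand. The authors aligned reads with bowtie 1.2.2 and counted them per gene with HTSeq 0.11.2, and the deposited values are raw counts per gene and library. PCR cycles differed between preparation batches, and the batch of each library is not given in the sources used here. Counts were analysed with edgeR 4.0.16 in R 4.3.3: the 15549 protein-coding genes that exceeded 10 counts in 4 or more libraries were fitted in all 48 libraries with 12 group terms, upper-quartile factors and W1, a factor of unwanted variation from 62 spike-ins, and tested by quasi-likelihood with Benjamini-Hochberg adjustment at 0.05. The fit was tested on simulated data. W1 averaged 0.23 in somatic degron larvae on auxin and -0.10 in those on ethanol, so it overlaps with that comparison. Intervals are at 95%. DESeq2 1.42.0, edgeR's likelihood ratio test, other scalings and filters, subsets, a replicate block and left-out libraries were alternatives. Genes named outside the 10 are the 3 most abundant that passed in each list, the rest of a small list, and the 2 most alike to each member. The gpd-1, gpd-4 and tre-4 values were added after they were seen.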

Additional observations from a re-analysis of the deposited data

Results flagged for a closer look

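In 8 of 120 groups of 4 libraries, 1 library's CPM lay far from the other 3 by Dixon's criterion, which chance alone gives in about 1 of 20 groups. In the somatic degron strain these were icl-1 in auxin replicate 3 (111 CPM), pck-1 in 36 h replicate 4 (456 CPM) and tps-1 in 36 h replicate 2 (129 CPM). In Peft-3::TIR1 they were pck-2 in auxin replicate 4 (838 CPM) and in 36 h replicate 4 (1029 CPM) and tps-2 in auxin replicate 3 (109 CPM), and in Pgld-1::TIR1 tre-3 in auxin replicate 2 (21.02 CPM) and pyc-1 in 36 h replicate 1 (204 CPM).

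The effect of auxin differed between the somatic degron strain and Peft-3::TIR1 for 7 members by the interaction test in edgeR. The log2 differences were -4.65 for icl-1, -2.35 for tre-2, -1.86 for pck-1, -1.63 for pyc-1, -0.99 for fbp-1, -0.73 for pck-2 and 2.16 for tre-3, and on the spike-in scale tre-3 no longer passed (0.47).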

How the results depend on the processing

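Of 1800 values of the members under alternatives, 1702 kept their direction and their side of the threshold (sign changes where neither value passed are counted here), 59 lost the call, 29 gained it and 10 reversed. Fits to the compared libraries alone with W1 gave 3 members called in place of 8 for auxin against ethanol in the somatic degron strain, 3 in place of 5 for auxin against 36 h, 5 in place of 9 for 132 h ethanol against 36 h in Peft-3::TIR1, and reversed tps-1 for auxin against ethanol (0.0176). Leaving out replicates gave 5 to 8 members called for auxin against ethanol in the somatic degron strain. At 36 h, 1 member was called in place of 0 under DESeq2, the likelihood ratio test and fits to the compared libraries with or without W1. On the spike-in scale tre-3 reversed for auxin against ethanol (-0.15), as did, over time, pck-2 in the somatic degron strain (0.35), the germline degron strain (0.11) and Peft-3::TIR1 (0.0048), tps-2 (0.17) and tre-1 (0.15) in Peft-3::TIR1, and tps-2 in Pgld-1::TIR1 (0.0751). Alternatives that drop somatic degron auxin replicate 4 or Pgld-1::TIR1 ethanol replicate 4 were chosen after seeing the data. On the spike-in scale, the first left 3 members called for auxin against 36 h, and the second reversed pck-2 (0.0340) and tps-2 (0.38) in Pgld-1::TIR1. The causes were not tested. The study prepared the 4 strains of a biological replicate in parallel, with 3 flasks a strain, but does not say whether the deposited numbers follow these preparations, and 6 of 16 auxin and ethanol pairs correlated over 0.1; the replicate block added calls for icl-1 for auxin against 36 h (0.56) and tps-1 in the interaction (-0.63) and changed no other. Precision is limited for tre-3 and fbp-1, with lowest counts of 37 and 51 per library.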
